A study of Arabidopsis thaliana with 36 samples.

Results

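Of 36632 annotated genes, 33 were measured at 2 or more times the level after a recurrent heat stress (HS) as after a single HS in WT seedlings and also in the hsfa2 and cdk8 mutants. They were chosen by these measured levels, in mean counts per 1000000 counted read pairs (CPM) over the 3 libraries of each group: at least 2 CPM in WT at P+T, WT at T no lower than WT at NHS, and P+T at least 2 times T in each genotype. Under the WT conditions alone 169 genes would pass, of which APX2, MIPS2 and XTR6 were left out in advance, and of the other 166 the condition was also met in both mutants by these 33, in cdk8 but not hsfa2 by 46, in hsfa2 but not cdk8 by 16, and in neither by 71. These ratios chose the genes, so they are described here without a test, and the same holds for T against NHS.

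Whole Arabidopsis thaliana seedlings were harvested on day 7 of growth. They had received 1 h at 37 °C on day 5 only (P), on day 7 only (T), on both days (P+T), or no HS (NHS). The hsfa2 and cdk8 lines are T-DNA insertion lines (SALK_008978 and GABI_564F11), 1 allele each, in the Col-0 background that WT represents. Each of the 12 groups had 3 libraries of polyadenylated RNA labelled as biological replicates, with 29409330 to 31224343 counted pairs per library, so that 1 CPM stands for about 30 pairs and 3 counts for 0.0961 to 0.102 CPM.

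Hyper-induction is the form of HS memory in which a gene responds more strongly to a second stress than to the first. HSFA2 is a heat shock transcription factor that is itself strongly heat-induced and binds heat shock elements in front of its targets. CDK8 is the cyclin-dependent kinase of the Mediator kinase module, which docks reversibly onto Mediator, the complex that links transcription factors to RNA polymerase II. Genes of these 33 act in abscisic acid (ABA) and jasmonate signalling, in transcription, at membranes, in carbon metabolism and in the protection of drying cells, and several have no known function.

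The libraries were checked first. CDK8 had 3.44 to 7.15 CPM in cdk8 libraries and 14.0 to 49.9 CPM in all others. HSFA2 had 630 to 701 CPM at P+T in hsfa2, 900 to 1116 CPM in cdk8 and 2571 to 3016 CPM in WT, so reads of this gene were still counted in the hsfa2 line. HSFA2 was not called lower in hsfa2 than in WT at T or at P+T, although these libraries did not overlap at either treatment. Whether the reads make a functional transcript was not tested. Green-tissue genes (RBCS1A, CAB1, CAB2, RCA) were abundant in every library, with 50236 to 93609 CPM in sum. Seed storage genes (CRA1, CRU3, OLEO1, SESA1) summed to 10.2 to 6344 CPM in cdk8 libraries, against 1.54 to 103 CPM in WT and 0.642 to 46.0 CPM in hsfa2, and all 4 were called higher in cdk8 than WT at T and at P+T. Among the cdk8 P+T libraries that sum differed by up to 54.9 times, and the 28 of the 33 genes with at least 1 CPM there differed by 1.02 to 2.48 times. The part of seed RNA in the results was not tested. In whole seedlings, fewer cells of a type and less RNA per cell cannot be told apart.

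The ratio of P+T to T was smaller in the mutants for most genes. It ran from 2.02 to 12.9 in hsfa2 (median 2.58), from 2.00 to 22.5 in cdk8 (median 3.40, over 32 genes) and from 2.08 to 42.0 in WT (median 4.35). The hsfa2 ratio was below the WT ratio for 29 genes and the cdk8 ratio for 21. The largest of the 3 ratios was found in WT for 22 genes, in cdk8 for 11 and in hsfa2 for none. Ratios below 2.5, near the minimum, were held by 14 genes in hsfa2, 10 in cdk8 and 4 in WT. All P+T libraries lay above all T libraries for 33 genes in hsfa2, 31 in cdk8 and 33 in WT, beside 11.4%, 10.9% and 15.3% of all genes, which the choice by this ratio leads to.

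**Figure D1:**
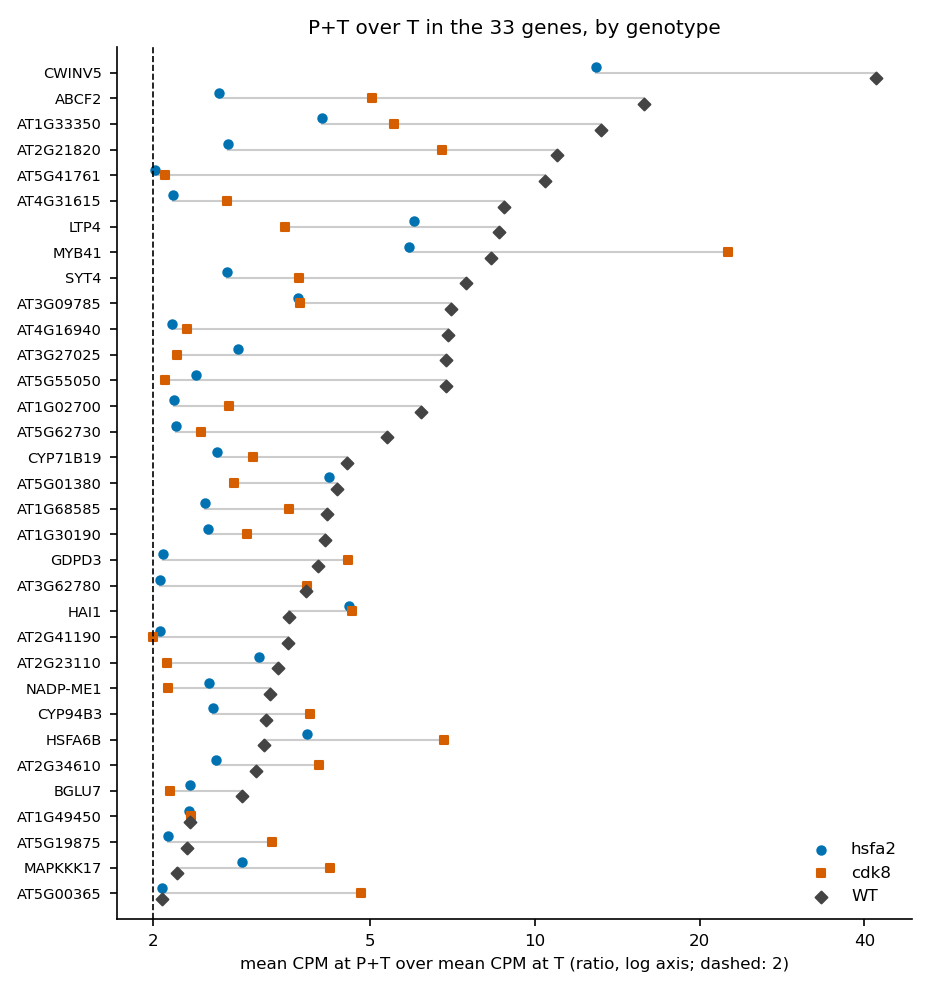
Mean CPM at P+T over mean CPM at T for each of the 33 genes (rows) in hsfa2, cdk8 and WT (points) on a log axis. The dashed line is the minimum of 2 that chose the genes. WT points lie rightmost for 22 genes. CWINV5 has no cdk8 point because its cdk8 T libraries were at 0.

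The cdk8 ratio of some genes rests on very few reads. CWINV5 had 2, 3 and 0 counts in the cdk8 P+T libraries and 0 in each cdk8 T library, and AT1G30190 had 3, 0 and 0 at P+T and 0, 0 and 1 at T, so neither was measurably expressed in cdk8 after HS. MYB41 had 0, 3 and 1 counts in the cdk8 T libraries, and its ratio of 22.5, the highest in cdk8, stands on these. Of the 33 genes, 5 had a cdk8 P+T mean under 1 CPM, and 2 an hsfa2 mean under 1 CPM. At the edge of the rule, AT2G41190, a predicted amino acid transporter, had ratios of 2.06 in hsfa2, 2 in cdk8 and 3.53 in WT. AT5G41761, a small uncharacterized protein, had 2.02 in hsfa2, 2.1 in cdk8 and 10.4 in WT. AT3G62780, a protein with a calcium-dependent lipid-binding domain, had 2.06 in hsfa2, 3.82 in cdk8 and 3.8 in WT. Just outside were AT2G32140, with 1.97 in hsfa2, the sugar transporter gene SWEET1, with 1.97 in cdk8, and TLP-3, with 1.95 in cdk8.

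The rule was read again in libraries that had not chosen the genes. With replicate 1, 2 or 3 of every group held out, the other replicates chose 33, 31 and 28 genes. Of these, 17 (51.5%), 17 (54.8%) and 18 (64.3%) again had P+T at or above 2 times T in all 3 genotypes in the held-out libraries. Among the genes so chosen, this held in WT for 30, 29 and 28, in hsfa2 for 22, 19 and 25, and in cdk8 for 24, 26 and 21. A gene with 0 counts at both treatments meets this condition without a ratio. In cdk8 this was so for AT1G30190 in replicate 2 and CWINV5 in replicate 3, which are among the genes counted. The share of all genes that meet the condition was not computed.

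The second question was whether the genes reached the WT level. Their median level at P+T was 7.85 CPM in hsfa2, 3.64 CPM in cdk8 and 15.3 CPM in WT. Calls used edgeR's quasi-likelihood test with Benjamini-Hochberg adjustment over 20847 genes, at an adjusted p under 0.05 and an absolute log2 fold change (log2FC, given ± SE) above 1. In hsfa2, 18 of the 33 were called lower than WT at P+T, where 1.42% of all tested genes were called lower, with a median log2FC of -1.19 over the 33 and 0.03 over all genes. In cdk8, 26 were called lower, where 6% of all genes were, with a median of -1.81 over the 33 and 0.02 over all genes. None was called higher in hsfa2 (0.293% of all genes) or cdk8 (1.51%), by edgeR, by DESeq2 or at an unadjusted p under 0.05. All hsfa2 libraries lay below all WT libraries for 25 genes (11.1% of all genes), and all cdk8 libraries did so for 29 (11.2%). Both comparisons use the same WT libraries. In hsfa2, 54.5% of the 33 were lower, against 54.9% of the 71 genes that met the ratio in WT alone. It was 71.7% of the 46 that failed it in hsfa2 alone and 0% of the 16 that failed it in cdk8 alone. In cdk8, 78.8% of the 33 were lower, against 29.6% of these 71, 30.4% of these 46 and 81.25% of these 16. These shares were not tested against each other. The rule set a minimum level in WT at P+T and none in the mutants, so lower values in the mutants were favoured by the choice of genes. The calls, counts and adjusted p of each mutant against WT at P+T, here and for single genes below, are therefore a description of the chosen genes. The rule asks for a ratio of at least 2 in each genotype, so a description of the 33 as independent of both regulators refers to that minimum alone, and neither to the size of the ratio nor to the level reached at P+T.

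**Figure D2:**
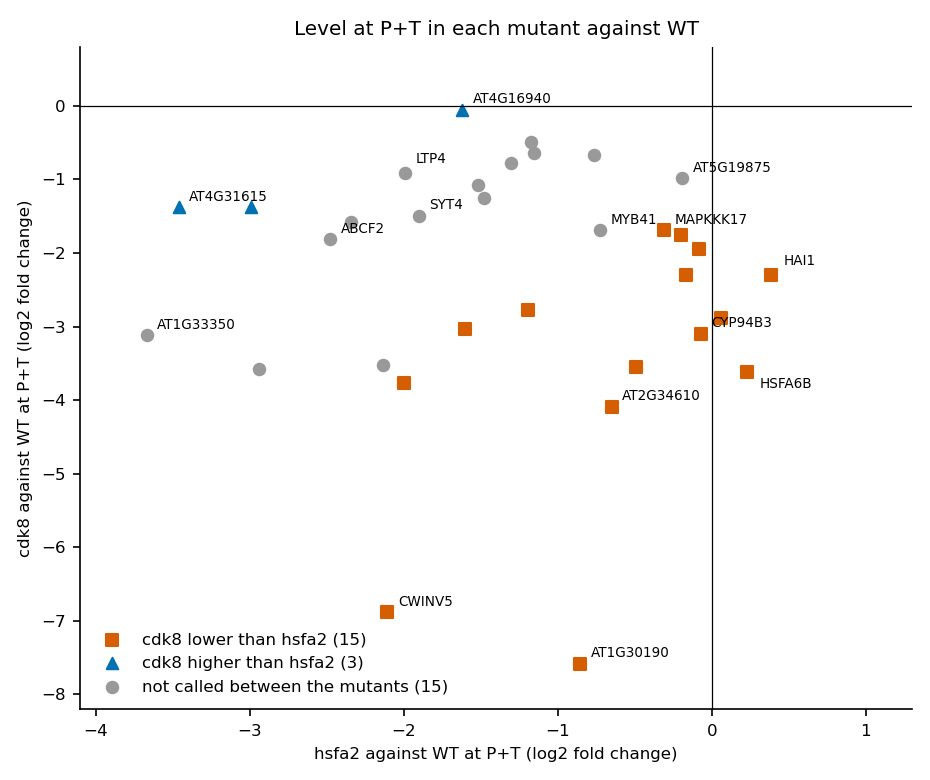
Fitted log2 fold change at P+T of hsfa2 against WT (horizontal axis) and of cdk8 against WT (vertical axis) for the 33 genes, which share the WT libraries. Colours and marks give the direct call of cdk8 against hsfa2 at P+T: 15 lower, 3 higher and 15 not called. All points lie below 0 on the cdk8 axis, where those of CWINV5 and AT1G30190 rest on 5 and 3 counts in cdk8 and have no exact size.

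The mutants were also compared directly. At P+T, 15 genes were called lower in cdk8 than in hsfa2 (6.26% of all genes) and 3 were called higher (2.12% of all genes), or 8 on the adjusted p alone (10.4%). The T libraries of every genotype were used by the rule, which favours low T values in each and WT at T no lower than at NHS. All counts and values at T, here and for single genes below, are therefore a description and give no support to those at P+T. At T, 16 were lower in cdk8 than in hsfa2 (5.59%) and 2 higher (2.31%). At T, 21 genes were lower in cdk8 than in WT (5.56% of all genes, median log2FC -1.53) and AT4G16940 was higher (2.1%). In hsfa2, AT1G33350 alone was lower than WT at T (0.0432% of all genes, median log2FC of the 33 -0.40), and none was higher (0.00959%) by edgeR, by DESeq2 or at an unadjusted p under 0.05. Scaling by library size alone moved the median of all genes in cdk8 against WT by 0.26 at T and 0.20 at P+T, and the 33 then held 21 lower and 1 higher calls at T and 25 lower calls at P+T. Over all genes, the share of higher calls in cdk8 against WT was then 50.1% in place of 27.4% at T and 34.4% in place of 20.1% at P+T.

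HAI1, MAPKKK17 and CYP94B3, which act in ABA and jasmonate signalling, were called lower than WT at P+T in cdk8 and not in hsfa2. HAI1 (chr5:23894404-23896939, positions in TAIR10.1) encodes a clade A protein phosphatase 2C, a co-receptor that holds SnRK2 kinases inactive until ABA binds its receptor. At P+T it had 22.8, 20.9 and 18.1 CPM in hsfa2, 4.18, 3.59 and 3.15 CPM in cdk8, and 16.7, 14.2 and 16.7 CPM in WT. The cdk8 libraries lay below all others, and the hsfa2 libraries above WT without a call (cdk8 log2FC -2.30 ± 0.23, adjusted p = 4.39e-09; hsfa2 log2FC 0.38 ± 0.21, adjusted p = 0.337). At T, HAI1 had 5.15, 5.81 and 2.59 CPM in hsfa2, 1.05, 0.522 and 0.795 CPM in cdk8, and 4.28, 5.85 and 3.26 CPM in WT. MAPKKK17 (chr2:13798561-13800099) is a kinase at the head of an ABA-responsive MAP kinase cascade. Its P+T libraries held 14.8, 16.2 and 14.5 CPM in hsfa2, 6.87, 6.45 and 6.54 CPM in cdk8, and 17.1, 20.3 and 19.1 CPM in WT. No cdk8 value came near the hsfa2 or WT values (log2FC -1.38 ± 0.19, adjusted p = 1.60e-06 for cdk8 against hsfa2). CYP94B3 (chr3:17974853-17976774) is a cytochrome P450 that oxidises, and so turns over, the active hormone jasmonoyl-isoleucine. It had 51, 71 and 48.6 CPM in hsfa2, 7.4, 9.74 and 6.7 CPM in cdk8, and 56.4, 68.8 and 55.4 CPM in WT at P+T. The hsfa2 and WT libraries overlapped, and cdk8 was lower (against WT log2FC -3.10 ± 0.25, adjusted p = 7.10e-11).

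The same pattern was seen in the transcription factor HSFA6B (chr3:8078789-8081059), a heat shock factor of class A that has been linked to ABA responses. At T it had 4.1, 5.94 and 1.72 CPM in hsfa2, 0.229, 0.13 and 0.166 CPM in cdk8, and 3.7, 6.61 and 1.78 CPM in WT, and at P+T 15.7, 17.5 and 11.7 CPM in hsfa2, 1.81, 1.03 and 0.73 CPM in cdk8, and 13, 14 and 11.6 CPM in WT. It thus stayed under 2 CPM in every cdk8 library after HS (P+T against WT log2FC -3.61 ± 0.35, adjusted p = 2.76e-09), while hsfa2 and WT libraries overlapped. MYB41 (chr4:13968029-13969525), an R2R3-MYB factor linked to suberin and cuticle formation, was a gene of low abundance, with 1.1, 2.41 and 1.53 CPM in hsfa2, 1.12, 0.898 and 0.929 CPM in cdk8, and 3.26, 2.73 and 2.47 CPM in WT at P+T. Only cdk8 was called lower than WT (hsfa2 log2FC -0.73 ± 0.44, adjusted p = 0.401; cdk8 log2FC -1.69 ± 0.47, adjusted p = 0.00934), and cdk8 and hsfa2 overlapped. AT5G01380, a homeodomain-like protein, had 4.72, 5.51 and 3.39 CPM in hsfa2, 1.74, 1.16 and 1.33 CPM in cdk8, and 5.18, 5.43 and 3.94 CPM in WT, and cdk8 was lower than WT (adjusted p = 9.58e-05).

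AT4G31615 and AT1G02700, also annotated as DNA-binding proteins, were lower in hsfa2 as well. AT4G31615 (chr4:15320026-15322311), of the plant B3 domain family, had 0.465, 0.646 and 0.814 CPM in hsfa2, 2.89, 3.63 and 2.82 CPM in cdk8, and 8.87, 7.41 and 5.37 CPM in WT at P+T. The 3 genotypes did not overlap, with hsfa2 lowest (hsfa2 against WT log2FC -3.46 ± 0.32, adjusted p = 1.92e-09; cdk8 against hsfa2 log2FC 2.09 ± 0.32, adjusted p = 1.08e-05). AT1G02700, annotated as GATA transcription factor-like, had 14.9, 13.9 and 12.9 CPM in hsfa2, 23.8, 29.3 and 26.9 CPM in cdk8, and 70.7, 71.8 and 70.034 CPM in WT. Here too hsfa2 was lowest and WT highest, and both mutants were called lower than WT (hsfa2 -2.34 ± 0.23, adjusted p = 5.87e-09; cdk8 -1.59 ± 0.22, adjusted p = 2.00e-06).

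**Figure D3:**
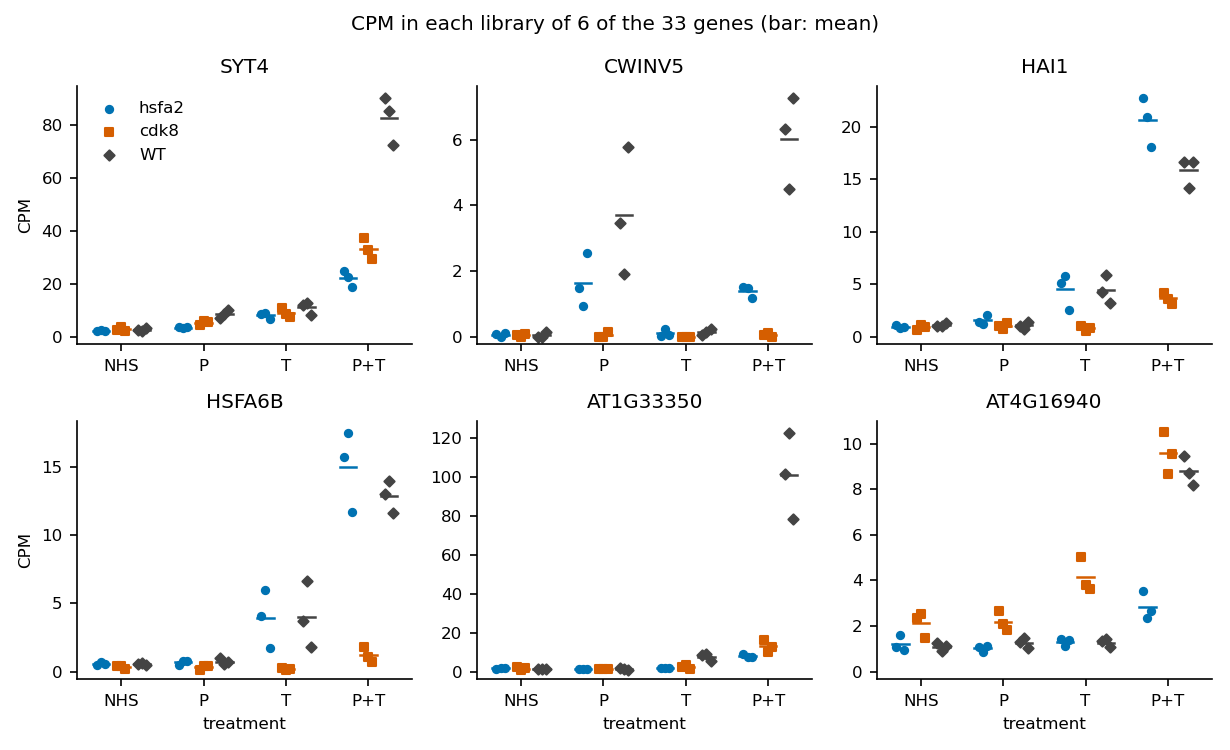
CPM in each library (points) and group mean (bars) of 6 of the 33 genes in hsfa2, cdk8 and WT at NHS, P, T and P+T. HAI1 and HSFA6B at P+T have the cdk8 points lowest, SYT4 and AT1G33350 the WT points highest, AT4G16940 the hsfa2 points lowest, and CWINV5 is high at P and P+T in WT and at or near 0 in cdk8.

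Of the genes linked to lipids, SYT4, AT3G62780, GDPD3 and AT5G55050 were called lower than WT in both mutants at P+T, and LTP4 in neither. SYT4 (chr5:3532402-3535221) encodes a synaptotagmin, a protein with calcium- and lipid-binding C2 domains that tethers membranes to each other. It had 24.7, 22.5 and 18.9 CPM in hsfa2, 37.5, 32.8 and 29.5 CPM in cdk8, and 90.4, 85.5 and 72.6 CPM in WT at P+T. The genotypes did not overlap, with hsfa2 lowest and WT highest (hsfa2 log2FC -1.90 ± 0.14, adjusted p = 3.20e-11; cdk8 log2FC -1.49 ± 0.14, adjusted p = 1.64e-09). AT3G62780, with the same kind of lipid-binding domain, had 10.1, 10.2 and 9.32 CPM in hsfa2, 15.2, 12.2 and 12.3 CPM in cdk8, and 29.2, 29.8 and 24.5 CPM in WT, and both mutants lay below WT (adjusted p = 4.84e-09 in hsfa2 and adjusted p = 4.57e-08 in cdk8). GDPD3 (chr5:17376619-17379282) belongs to the glycerophosphodiester phosphodiesterases, which release glycerol-3-phosphate from the head groups of degraded phospholipids. Its P+T values were 11.6, 8.53 and 6.71 CPM in hsfa2, 4.24, 3.36 and 2.55 CPM in cdk8, and 23.2, 20.8 and 17.6 CPM in WT. They were ordered cdk8, hsfa2, WT without overlap (cdk8 against hsfa2 log2FC -1.58 ± 0.28, adjusted p = 7.74e-05).

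AT5G55050 (chr5:22337626-22340389), a GDSL-type lipase or acylhydrolase, was abundant before any HS, with 23.1, 16.6 and 15.7 CPM in hsfa2, 28.2, 19.992 and 16 CPM in cdk8, and 32, 17.4 and 17.6 CPM in WT at NHS. At T it had 19.9, 18.7 and 15.9 CPM in hsfa2, 7.84, 4.5 and 8.35 CPM in cdk8, and 24.8, 29 and 22.5 CPM in WT, and at P+T 49.5, 32.9 and 48.3 CPM in hsfa2, 15.6, 14 and 13.9 CPM in cdk8, and 189.7, 151 and 183 CPM in WT. In cdk8 it was thus lower at T than in any other group, and its P+T level stayed below the lowest cdk8 NHS library (P+T against WT, cdk8 log2FC -3.77 ± 0.26, adjusted p = 3.60e-12; hsfa2 log2FC -2.0 ± 0.24, adjusted p = 5.62e-07). LTP4, a small extracellular lipid transfer protein, had 1.1, 0.646 and 2 CPM in hsfa2, 1.87, 3.09 and 3.98 CPM in cdk8, and 2.61, 2.21 and 9.78 CPM in WT. These libraries varied widely within a group and no difference was called, in hsfa2 -1.99 ± 0.71 (adjusted p = 0.098, and -1.82 with adjusted p = 0.0106 with the replicate number as a block, which calls it lower) and in cdk8 -0.92 ± 0.66 (adjusted p = 0.384).

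Enzymes of carbon and secondary metabolism behaved unlike each other. CWINV5 (chr3:4528362-4530713) is named as a cell wall invertase, an enzyme that splits sucrose outside the cell. At P+T it had 1.53, 1.5 and 1.19 CPM in hsfa2, 0.0658, 0.0998 and 0 CPM in cdk8, and 6.32, 4.51 and 7.28 CPM in WT. WT was highest, hsfa2 intermediate and cdk8 at or under 3 counts, with no overlap (hsfa2 log2FC -2.11 ± 0.44, adjusted p = 0.00198; cdk8 adjusted p = 8.00e-09). NADP-ME1 (chr2:8591808-8595559) decarboxylates malate to pyruvate and yields NADPH. It had 24.7, 20.4 and 17.2 CPM in hsfa2, 23.9, 25.6 and 25.7 CPM in cdk8, and 39.6, 34.4 and 32.2 CPM in WT. Both mutants lay below WT by less than the fold that a call needed (hsfa2 log2FC -0.76 ± 0.23, adjusted p = 0.0385; cdk8 log2FC -0.67 ± 0.23, adjusted p = 0.0366), and they overlapped with each other. BGLU7, a beta-glucosidase, had 9.07, 9.01 and 6.14 CPM in hsfa2, 3.45, 3.53 and 2.39 CPM in cdk8, and 11, 10.7 and 6.51 CPM in WT, and cdk8 was lower (log2FC -1.75 ± 0.27, adjusted p = 1.16e-05) while hsfa2 overlapped WT. CYP71B19, a cytochrome P450, had 4.12, 3.37 and 3.09 CPM in hsfa2, 7.6, 4.92 and 4.88 CPM in cdk8, and 10.8, 7.02 and 8.41 CPM in WT, with hsfa2 called lower (log2FC -1.30 ± 0.20, adjusted p = 2.52e-05) and cdk8 not (log2FC -0.77 ± 0.19, adjusted p = 0.00414).

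ABCF2 (chr5:3097555-3100291), annotated as of the ABC transporter family, belongs to its soluble proteins that lack membrane-spanning parts. It had 0.787, 1.01 and 0.995 CPM in hsfa2, 1.01, 0.782 and 0.861 CPM in cdk8, and 0.837, 0.661 and 1.11 CPM in WT at T, where the genotypes overlapped, and 2.79, 1.9 and 2.68 CPM in hsfa2, 5.16, 3.92 and 4.28 CPM in cdk8, and 13.4, 13 and 14.8 CPM in WT at P+T, where they did not. Both mutants were lower at P+T (hsfa2 log2FC -2.48 ± 0.23, adjusted p = 2.39e-09; cdk8 log2FC -1.81 ± 0.22, adjusted p = 2.04e-07). AT5G62730, a transporter of the major facilitator superfamily, had 4.25, 4.22 and 3.36 CPM in hsfa2, 1.55, 2.1 and 1.33 CPM in cdk8, and 13.6, 11.6 and 11.1 CPM in WT, ordered cdk8, hsfa2, WT without overlap (cdk8 against hsfa2 log2FC -1.43 ± 0.34, adjusted p = 0.00213). AT2G41190 had 12, 8.91 and 11 CPM in hsfa2, 17, 17.1 and 17.3 CPM in cdk8, and 24.8, 22.5 and 23.8 CPM in WT, and hsfa2 was called lower than WT (log2FC -1.15 ± 0.13, adjusted p = 2.57e-07), while the cdk8 difference was smaller than the fold a call needed (log2FC -0.65 ± 0.13, adjusted p = 5.36e-04).

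The genes of seed maturation and dehydration differed from each other in the mutants. AT2G21820 (chr2:9302853-9303408), a seed maturation protein, had 3.75, 3.6 and 4.81 CPM in hsfa2, 11.3, 13.9 and 17.2 CPM in cdk8, and 32.7, 25.2 and 39.4 CPM in WT at P+T. The hsfa2 libraries were lowest, and cdk8 lay above hsfa2 and below WT (cdk8 against hsfa2 log2FC 1.62 ± 0.24, adjusted p = 4.26e-06). AT2G23110 (chr2:9840456-9841366) is a late embryogenesis abundant protein of group 6, a class of hydrophilic proteins that accumulate in drying seeds. It had 25, 30.2 and 20.8 CPM in hsfa2, 3.03, 4.42 and 2.95 CPM in cdk8, and 37.6, 35.8 and 34.2 CPM in WT. Here cdk8 was lowest (against WT log2FC -3.55 ± 0.25, adjusted p = 3.71e-12). Neither gene was higher in cdk8 than in WT at P+T, unlike the seed storage genes.

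The lowest log2FC at P+T in hsfa2 was that of AT1G33350 (chr1:12089249-12091743), a pentatricopeptide repeat protein, a family that binds RNA in organelles. It had 2.03, 1.85 and 1.89 CPM in hsfa2, 2.29, 3.26 and 1.56 CPM in cdk8, and 8.4, 9.25 and 5.24 CPM in WT at T and 8.97, 7.24 and 7.32 CPM in hsfa2, 16.3, 10.1 and 12.7 CPM in cdk8, and 101, 122 and 78.4 CPM in WT at P+T. Both mutants lay below WT at P+T without overlap (hsfa2 log2FC -3.67 ± 0.22, adjusted p = 1.48e-13; cdk8 log2FC -3.12 ± 0.21, adjusted p = 1.92e-12). AT4G16940 (chr4:9531373-9537918) is an intracellular immune receptor of the TIR-NBS-LRR class. At T it had 1.44, 1.1 and 1.39 CPM in hsfa2, 5.03, 3.81 and 3.61 CPM in cdk8, and 1.32, 1.42 and 1.07 CPM in WT. At P+T it had 3.52, 2.35 and 2.68 CPM in hsfa2, 10.5, 8.68 and 9.55 CPM in cdk8, and 9.45, 8.73 and 8.21 CPM in WT, with cdk8 and WT overlapping and hsfa2 below both (hsfa2 against WT log2FC -1.62 ± 0.18, adjusted p = 7.10e-08; cdk8 against WT log2FC -0.05 ± 0.17, adjusted p = 0.88, or 0.12 under scaling by library size alone). AT1G49450, a WD40 repeat protein, had 20.5, 25.5 and 16.8 CPM in hsfa2, 5.66, 7.02 and 3.65 CPM in cdk8, and 20.6, 27.3 and 22.8 CPM in WT, with cdk8 lower (adjusted p = 5.53e-07).

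A pair of genes annotated as cotton fiber proteins, of unknown function, had few reads in cdk8. AT2G34610 (chr2:14575392-14576527) had 11, 10.8 and 7.39 CPM in hsfa2, 1.05, 1.33 and 0.663 CPM in cdk8, and 14, 19.1 and 13 CPM in WT at P+T (log2FC -4.09 ± 0.22, adjusted p = 1.11e-14 in cdk8 against WT). It was already lower in cdk8 at NHS, with 0.258, 0.354 and 0.204 CPM in cdk8, against 2.4, 2 and 2.09 CPM in WT (log2FC -3.02 ± 0.29, adjusted p = 2.24e-08). AT1G30190 (chr1:10618893-10620067) had 4.22, 2.96 and 3.02 CPM in hsfa2, 0.0987, 0 and 0 CPM in cdk8, and 6.42, 7.51 and 4.67 CPM in WT at P+T, so that in cdk8 it was at or under 3 counts in each library (adjusted p = 1.25e-12).

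AT5G19875 (chr5:6718206-6719303), an uncharacterized protein, was the most abundant of the 33, with 169.997, 287 and 201 CPM in hsfa2, 109, 166 and 159 CPM in cdk8, and 190.3, 210.3 and 349 CPM in WT at P+T and 107, 101 and 100.2 CPM in hsfa2, 41.4, 41.6 and 48.5 CPM in cdk8, and 100.2, 107 and 117 CPM in WT at T. The P+T libraries of hsfa2 and WT overlapped, and cdk8 was lower by just under the fold of a call (log2FC -0.98 ± 0.23, adjusted p = 0.0028). It passed that fold without WT replicate 1 or 2 or without cdk8 replicate 2 or 3 (log2FC -1.17, -1.11, -1.09 and -1.07). AT5G41761 had 2.66, 3.6 and 2.92 CPM in hsfa2, 2.07, 2.66 and 2.02 CPM in cdk8, and 22.1, 27.7 and 21.6 CPM in WT, among the strongest deficits in both mutants (hsfa2 -2.94 ± 0.22, adjusted p = 1.74e-11; cdk8 -3.57 ± 0.23, adjusted p = 3.60e-13). AT1G68585 had 4.62, 3.91 and 3.32 CPM in hsfa2, 9.21, 6.62 and 5.91 CPM in cdk8, and 9.88, 8.63 and 8.41 CPM in WT, with hsfa2 called lower (adjusted p = 5.27e-04) and cdk8 overlapping WT (log2FC -0.49 ± 0.21, adjusted p = 0.119). AT3G27025 had 1.36, 1.26 and 1.7 CPM in hsfa2, 2.7, 2 and 1.99 CPM in cdk8, and 3.91, 3.52 and 4.94 CPM in WT, lower in both mutants (adjusted p = 9.11e-04 in hsfa2 and adjusted p = 0.00754 in cdk8). Its cdk8 call was lost without WT replicate 3 (log2FC -0.87, adjusted p = 0.0632).

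Of the 2 genes annotated as RNAs without a protein, AT5G00365 had 4.65, 3.64 and 4.54 CPM in hsfa2, 0.46, 0.831 and 0.597 CPM in cdk8, and 5.41, 2.93 and 4.04 CPM in WT at P+T, with cdk8 below the others (log2FC -2.88 ± 0.42, adjusted p = 5.31e-06) and hsfa2 overlapping WT (log2FC 0.06 ± 0.36, adjusted p = 0.958). It shares 1165 bases with AT5G11090 on the same strand, and AT5G11090 had a mean of 0.0563 CPM in hsfa2, 0.0111 in cdk8 and 0 in WT at P+T. Reads from the shared bases cannot be told apart, and ambiguous pairs were left out. The low counts of AT5G11090 therefore do not show that it was silent. AT3G09785 had 0.565, 0.782 and 0.339 CPM in hsfa2, 0.329, 0.166 and 0.232 CPM in cdk8, and 3.75, 2.77 and 1.07 CPM in WT, lower in both mutants (adjusted p = 0.00574 in hsfa2 and adjusted p = 2.65e-05 in cdk8). The hsfa2 call of AT3G09785 was lost without WT replicate 1 (adjusted p = 0.0557).

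The P libraries, which the rule did not use, were taken 2 days after the stress of day 5. Their comparison with NHS is not free of the rule in WT, since WT NHS was used there (WT at T no lower than WT at NHS), which favours low WT NHS values, and no such condition was set in the mutants. The counts of WT, and their difference from those of the mutants, are therefore a description. In hsfa2, 1 of the 33 genes, CWINV5, was called higher at P than at NHS, where 0.00959% of all genes were (median log2FC of the 33 0.25). In cdk8 it was none by edgeR or DESeq2 (0.024% of all genes, median 0.19), with 7 at an unadjusted p under 0.05 and 1 on the adjusted p alone (0.0288% of all genes). In WT it was 8 (0.197% of all genes, median 0.49 over the 33 and 0.01 over all genes). None was called lower at P in hsfa2 (0.0048% of all genes), cdk8 (0%) or WT (0.0192%) by edgeR or DESeq2, or at an unadjusted p under 0.05. In WT, 24.2% of the 33 were called higher at P, against 9.86% of the 71 genes that met the ratio in WT alone, 6.25% of the 16 that failed it in cdk8 and 2.17% of the 46 that failed it in hsfa2. All of these genes met the same conditions in WT, and the shares were not tested against each other.

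**Figure D4:**
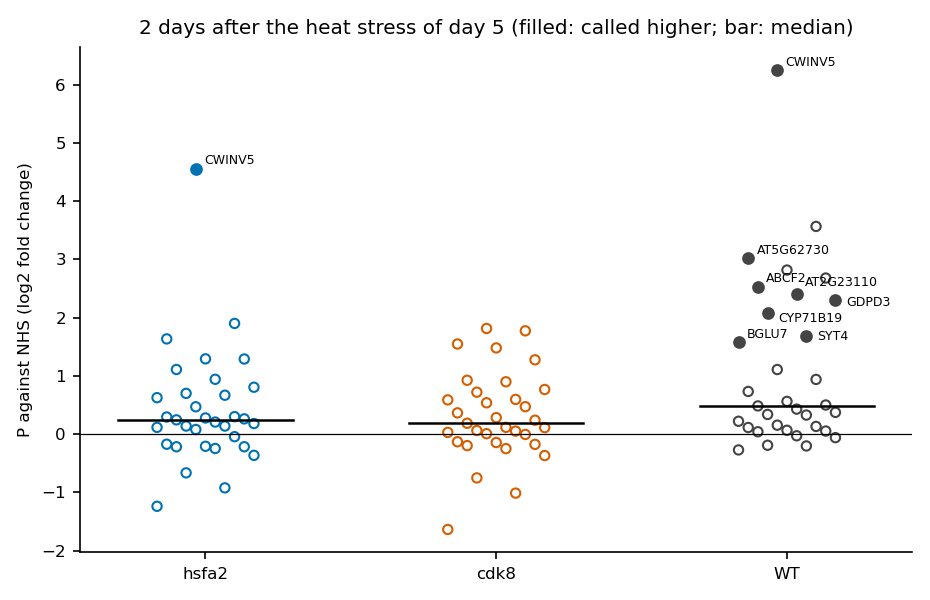
Fitted log2 fold change of P against NHS for the 33 genes in hsfa2, cdk8 and WT. Filled points were called higher and are named, and bars are medians. In WT 8 points are filled, in hsfa2 1 and in cdk8 none.

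The largest such difference was that of CWINV5, which had 1.48, 0.93 and 2.54 CPM at P in hsfa2, 0, 0 and 0.132 in cdk8 and 3.46, 1.91 and 5.79 in WT. Its NHS libraries held 0.0961, 0 and 0.0984 CPM in hsfa2, 0.0646, 0 and 0.0679 CPM in cdk8, and 0, 0 and 0.135 CPM in WT. It was called higher at P in WT (adjusted p = 5.53e-06) and in hsfa2 (adjusted p = 0.00564, lost without hsfa2 NHS replicate 2, adjusted p = 0.116), and lower in cdk8 than in WT at P (adjusted p = 1.08e-06), with cdk8 at 0, 0 and 4 counts. At T, CWINV5 had 0.0328, 0.227 and 0.0663 CPM in hsfa2, 0, 0 and 0 CPM in cdk8, and 0.0644, 0.132 and 0.235 CPM in WT, so it was near 0 directly after a single HS and present 2 days later.

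SYT4 had 6.99, 8.58 and 10.005 CPM at P in WT, against 2.49, 2.29 and 3.16 at NHS (log2FC 1.69 ± 0.17, adjusted p = 1.41e-07). At P the hsfa2 libraries held 3.56, 3.27 and 3.5 CPM and lay below every WT library (log2FC -1.35 ± 0.16, adjusted p = 1.93e-05), and cdk8 held 4.48, 6.01 and 5.4. CYP71B19 had 2.41, 2.5 and 1.94 CPM in hsfa2, 5.72, 4.65 and 4.15 CPM in cdk8, and 6.73, 5.79 and 5.66 CPM in WT at P, and 1.65, 1.28 and 1.38 at NHS in WT. It was called higher at P in WT (log2FC 2.08 ± 0.22, adjusted p = 4.72e-07) and lower in hsfa2 than in WT at P (log2FC -1.45 ± 0.21, adjusted p = 1.41e-04). GDPD3 had 1.28, 1.6 and 0.801 CPM in hsfa2, 0.26, 0.291 and 0.395 CPM in cdk8, and 2.85, 2.88 and 2.24 CPM in WT at P, and 0.551, 0.819 and 0.235 at NHS in WT. It was higher at P in WT (log2FC 2.30 ± 0.37, adjusted p = 5.93e-04) and lower in cdk8 than in WT at P (log2FC -3.11 ± 0.41, adjusted p = 6.90e-06).

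BGLU7 had 10.5, 11 and 6.34 CPM in hsfa2, 4.55, 4.59 and 3.89 CPM in cdk8, and 9.94, 11.1 and 6.75 CPM in WT at P, and 4.52, 3.82 and 2.89 CPM in hsfa2, 1.32, 1.84 and 1.53 CPM in cdk8, and 3.21, 3.51 and 2.66 CPM in WT at NHS. Each genotype had all P libraries above all its NHS libraries, and by edgeR the call was made in WT (log2FC 1.57 ± 0.27, adjusted p = 0.00133) and not in hsfa2 (log2FC 1.29 ± 0.26, adjusted p = 0.0658) or cdk8 (log2FC 1.48 ± 0.30, adjusted p = 0.0681). In hsfa2 it was called with the replicate block (log2FC 1.28, adjusted p = 1.39e-04) and by DESeq2 (log2FC 1.29, adjusted p = 0.00461). AT2G23110 had 1.22, 1.33 and 1.15 CPM at P in WT, against 0.292, 0.197 and 0.202 at NHS (log2FC 2.40 ± 0.44, adjusted p = 0.00319). AT5G62730 had 1.12, 1.07 and 0.592 against 0.0972, 0.131 and 0.101 (log2FC 3.03 ± 0.59, adjusted p = 0.00633), and ABCF2 0.321, 0.453 and 0.823 against 0.13, 0.0328 and 0.101 (log2FC 2.54 ± 0.48, adjusted p = 0.00478). These low levels limit the calls: that of AT5G62730 was lost without WT NHS replicate 3 (adjusted p = 0.0505), and that of ABCF2 without WT NHS replicate 2 or WT P replicate 3 (adjusted p = 0.0798 and 0.102).

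A test of the difference between genotypes in P against NHS called none of the 33 by edgeR without the replicate block in hsfa2 (0.00959% of all genes lower, 0% higher) or cdk8 (0% each way), with 4 lower and 0 higher in hsfa2 and 6 lower and 1 higher in cdk8 at an unadjusted p under 0.05. DESeq2 called SYT4 and AT5G62730 lower in hsfa2 (log2FC of the difference -1.07 and -3.13, adjusted p = 0.0356 and 0.0420) and CWINV5 in cdk8 (adjusted p = 0.0256). More of the 33 were thus called at P in WT than in the mutants, without a called difference between genotypes for most of them.

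Between genotypes at P, 4 genes were lower in hsfa2 than in WT (0.153% of all genes, median log2FC -0.50), which were SYT4, CYP71B19, ABCF2 and NADP-ME1. NADP-ME1 had 2.5, 3.05 and 2.8 CPM in hsfa2, against 3.56, 7.32 and 8.03 CPM in WT (log2FC -1.22 ± 0.27, adjusted p = 0.0285), and its call was lost on leaving out any of the hsfa2 P libraries or WT replicate 2 or 3 (adjusted p = 0.0893 to 0.312). ABCF2 had 0.225, 0.0962 and 0.0667 CPM in hsfa2, against 0.321, 0.453 and 0.823 CPM in WT (log2FC -2.03 ± 0.44, adjusted p = 0.0282), lost without hsfa2 replicate 2 or 3 or WT replicate 3 (adjusted p = 0.142 to 0.378). With the replicate block 8 were lower, with AT2G23110, AT5G41761, GDPD3 and LTP4 added. In cdk8 4 were lower (1.4% of all genes, median -0.52), which were CWINV5, GDPD3, AT2G34610 and BGLU7, and that of BGLU7 was lost without WT replicate 2 (log2FC -0.98, adjusted p = 0.0443). None was called higher than WT at P in hsfa2 (0.0192% of all genes) or cdk8 (1.16%) by edgeR. At an unadjusted p under 0.05, 0 genes were higher in hsfa2 and 4 in cdk8, of which 2 passed on the adjusted p alone (2.69% of all genes). DESeq2 called none higher in hsfa2 and AT4G31615 higher in cdk8 (log2FC 1.07, adjusted p = 0.0186).

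At NHS, where the WT libraries were used by the rule, no gene of the 33 was called in hsfa2 by edgeR or DESeq2 (0.00959% of all genes in each direction), with 2 lower and 1 higher at an unadjusted p under 0.05. In cdk8, AT2G34610 and BGLU7 were lower (1.55% of all genes) and AT4G31615 was higher (0.926%), or 4 genes on the adjusted p alone (2.68%). BGLU7 had 1.32, 1.84 and 1.53 CPM in cdk8, against 3.21, 3.51 and 2.66 CPM in WT (log2FC -1.05 ± 0.30, adjusted p = 0.029), and AT4G31615 1.16, 1.22 and 1.05 CPM in cdk8, against 0.454, 0.524 and 0.505 CPM in WT (log2FC 1.15 ± 0.36, adjusted p = 0.0462). Both groups of libraries were apart, but the AT4G31615 call was lost on leaving out any NHS library of cdk8 or WT, and that of BGLU7 on leaving out any of these except WT replicate 3. With the replicate block, AT2G21820, LTP4 and AT5G62730 were also higher in cdk8 (adjusted p = 0.0398, 0.0423 and 0.0420) and GDPD3 lower (adjusted p = 0.0194).

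The other genes of these families were read from lists, beside 1.42% of all genes called lower in hsfa2 and 6% in cdk8 at P+T. Of 9 clade A PP2C genes, 2 in hsfa2, 1 in cdk8 and 1 in WT had at least 2 CPM at P+T and at least 2 times the T level. At P+T, 3 of the 9 were lower in cdk8 than in WT and none in hsfa2. These were HAI1, HAI2 (log2FC -3.11 ± 0.29, adjusted p = 1.34e-09) and HAI3 (log2FC -2.50 ± 0.36, adjusted p = 3.21e-06). Of 18 ABA-response genes, 3 were lower in cdk8 (median log2FC of the 18 -0.07) and none in hsfa2, among them MAPKKK17 and its closest relative MAPKKK18 (log2FC -2.34 ± 0.28, adjusted p = 1.91e-07). Of 10 genes of jasmonate turnover, 4 were lower in cdk8 and 1, ILL6, in hsfa2 (log2FC -1.17 ± 0.23, adjusted p = 7.40e-04), whereas of the JAZ repressor genes, which jasmonate induces, none of 10 had both 2 CPM and 2 times the T level in any genotype, and of the 9 tested 1 was lower in cdk8. JAZ7 met the ratio in all 3 genotypes below that level, with 1.39 CPM in hsfa2, 0.64 in cdk8 and 1.86 in WT at P+T, against 0.591, 0.306 and 0.766 CPM at T.

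Of 6 heat-linked class A heat shock factor genes, 4 were lower in cdk8 than in WT at P+T and HSFA7A was higher in hsfa2 (log2FC 1.41 ± 0.14, adjusted p = 9.47e-09), and HSFA6B was the only one with at least 2 CPM and 2 times the T level in hsfa2 or WT. All 4 genes of the MYB41 subgroup were lower in cdk8 at P+T (MYB102 log2FC -2.84 ± 0.22, adjusted p = 3.93e-11) and none in hsfa2. In the synaptotagmin, GDPD, ABCF and cell wall invertase families, SYT4, GDPD3, ABCF2 and CWINV5 were the only genes called lower than WT at P+T, in hsfa2 and in cdk8, of 4, 6, 5 and 4 genes tested. No NADP-malic enzyme gene of 4 was called.

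The genes lie on all 5 chromosomes (5, 6, 8, 3 and 11 genes on chromosomes 1 to 5). The closest were AT5G00365 and SYT4, 6231 bases apart, BGLU7 and AT3G62780, 7652 bases apart, and HAI1 and LTP4, 28050 bases apart. Of the 33, 26 overlap no other gene, and 26 have a neighbouring or overlapping gene of at least 2 CPM in WT at P+T. In 5 of these such a gene also had 2 or more times its T level there, as had AT2G23100 beside AT2G23110 (2.92 times). The 6 genes that overlap a gene on the other strand are AT1G33350, AT1G68585, CWINV5, AT4G31615, ABCF2 and AT5G55050. For these the strand setting of the counts, not given in the sources used here, could matter. PSRP3/1, which shares 160 bases with AT1G68585, had 155 CPM in WT at P+T and 169 CPM at T. NRPB4, which shares 283 bases with ABCF2, had 10.8 and 12 CPM, so in WT neither was higher at P+T than at T. In hsfa2, PSRP3/1 had 173.9 CPM at P+T and 174.9 at T, and NRPB4 had 12.07 and 11.28. In cdk8, PSRP3/1 had 200.1 and 196.3 CPM, and NRPB4 had 13.98 and 14.04. The part of such reads in the counts of the 33 was not tested.

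The 500 bases before each annotated start were searched on both strands of TAIR10.1. The minimal heat shock element GAANNTTC was found for 5 of the 33 genes (15.2%, exact 95% binomial interval 5.11 to 31.9%), against 18.3% of the windows of all 36608 genes with a window. A perfect heat shock element of 3 units, in either of its forms, was found for none (interval up to 10.6%), against 0.819% of all. The ACGTG core of ABA-responsive elements (ABRE) was found for 19 (57.6%, 39.2 to 74.5%), against 33.6% of all. The G-box CACGTG, which contains the ABRE core, was found for 8 (24.2%, 11.1 to 42.3%), against 8.27% of all. Among the 14809 genes with at least 2 CPM in WT at P+T, the shares were 35.9% for the ABRE core and 10.8% for the G-box. CCGAC, the DRE/CRT, was found for 6 (18.2%, against 21.7%) and TTGAC, the W-box core, for 21 (63.6%, against 66.7%). Among the 16 genes that failed the ratio in cdk8 alone 31.2% had a G-box, of the 46 that failed it in hsfa2 alone 10.9%, and of the 71 that met it in WT alone 11.3%. The ABRE core was found for 56.2% of these 16, 41.3% of these 46 and 46.5% of these 71. A match describes the letters and is not a site of binding.

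**Figure D5:**
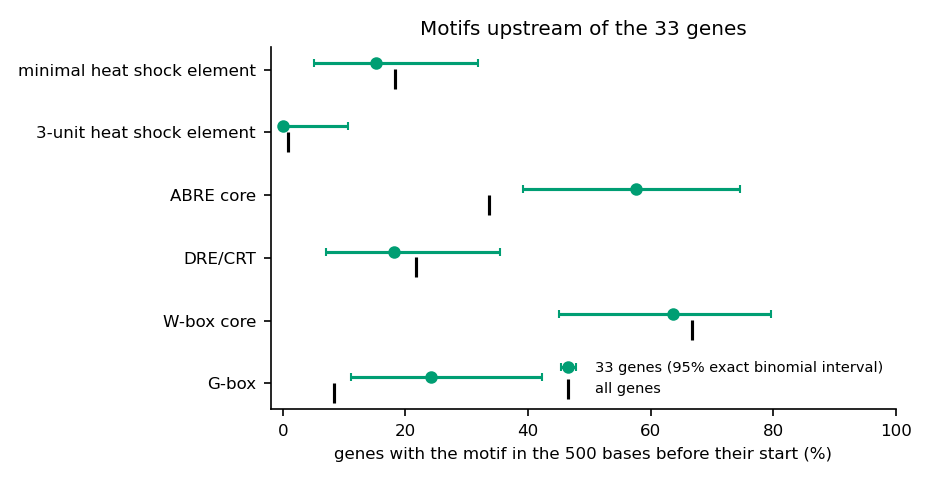
Share of the 33 genes (points, with exact 95% binomial intervals) and of all genes (ticks) whose 500 bases before the start hold each motif on either strand. The ABRE core (57.6% against 33.6%) and the G-box (24.2% against 8.27%) have intervals above the share of all genes, and those of both heat shock elements include it. All genes include those without reads, and the intervals are not adjusted for the number of motifs. Among the genes that failed the ratio in cdk8 alone, in hsfa2 alone or in both, 56.2%, 41.3% and 46.5% had the ABRE core and 31.2%, 10.9% and 11.3% a G-box.

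All 5 windows with a minimal heat shock element are shown, since HSFA2 binds elements of this kind, followed by 4 of the 8 with a G-box, for genes described above. Each is RefSeq sequence of TAIR10.1 on the strand of its gene, 5′ to 3′, with the motif in capitals. The AT2G21820 window lies within the neighbouring gene AT2G21830, and the others lie between annotated genes.
AT2G21820, chr2:9303736-9303763, minus strand: cttgatcaaaGAACCTTCatgattcaaa
CWINV5, chr3:4531052-4531079, minus strand: atgagatcttGAACATTCctgactgtcg
AT3G27025, chr3:9969326-9969353, plus strand: ggttgtgaaaGAAGGTTCacaaaacatg
MYB41, chr4:13969818-13969845, minus strand: acatacaaaaGAACATTCtatcactcca
AT5G62730, chr5:25197198-25197225, plus strand: ttatactctgGAATATTCtaacatagtt
MAPKKK17, chr2:13800164-13800191, minus strand: aaaaagaaatcCACGTGtgtacacaaga
MYB41, chr4:13969717-13969744, minus strand: atacatactatCACGTGgatcgtttcta
ABCF2, chr5:3100396-3100423, minus strand: atgcggtttgaCACGTGgcaatttatga
GDPD3, chr5:17379353-17379380, minus strand: ttatttttattCACGTGtagttgtgtct

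Of the 5 genes with a heat shock element, MYB41 was the only one not called lower in hsfa2 at P+T, and AT2G21820, CWINV5, AT3G27025 and AT5G62730 were lower there. All 5 were lower in cdk8. Of all 8 genes with a G-box, which also include AT3G27025, AT5G00365, AT5G19875 and LTP4, 3 were lower in hsfa2 (ABCF2, GDPD3 and AT3G27025) and 6 in cdk8 (all but AT5G19875 and LTP4), against 18 and 26 of the 33. With so few genes these are values side by side, and no relation was tested.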

How the data were processed

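Polyadenylated RNA of whole seedlings was sequenced in 36 libraries (3 of each of 12 groups). Per the submitters' processing notes, read pairs were mapped with STAR 2.7.10a to TAIR10, and the authors deposited raw counts per gene and library, without normalization or filtering. The strand column used is not given in the sources used here. Ambiguous pairs made up 5.62 to 7.10% and pairs outside genes 0.506 to 1.56% of a file, and rows naming no gene were left out. Replicates differed by more than sampling noise in all 36 pairs (chi-square per degree of freedom 6.47 to 57.6).

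CPM was computed from the sum over genes. Counts were fitted in R 4.3.3 with edgeR 4.0.16 (TMM scaling, genes kept by filterByExpr at min.count 10 and min.total.count 15, and a quasi-likelihood F-test over 12 groups), which left 20847 genes, among them all 33. SE is the absolute log2FC divided by the square root of F. Tested on simulated data for hsfa2 against WT at P+T (20754 genes), the fit recovered 97% of genes changed 2.5-fold and 100% of those changed 4-fold, with 2.48% false calls. The changed genes were drawn only above a minimum fitted count in WT at P+T. Their spread between libraries was set by the trend over all genes. These shares therefore do not hold for genes of lower counts or of wider spread, such as LTP4. HSFA2 itself, abundant after HS, was not called lower in hsfa2 than in WT at T or P+T, though its libraries did not overlap. The reason was not tested. A gene without a call in hsfa2 is thus not shown to be unchanged. Members, lists and motifs were chosen with earlier results of these data known, including the study's supplementary tables.

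The genes described in full are those in the lists, the 5 most abundant in WT at P+T, the 3 lowest and 3 highest in each mutant against WT at P+T, the 3 nearest the edge of the rule, and those called at P against NHS. Same-numbered libraries deviated together (correlation above 0.1 for every number, over 13382 genes) for hsfa2 P against NHS and for all comparisons between genotypes except cdk8 against WT at P, a hint from the data, since the labels give only numbers. Alternatives were DESeq2 1.42.0, its size factors in edgeR, library size alone, no filter beyond 1 read, the adjusted p alone, the replicate number as a block, other folds and levels in the rule, and each library left out. Intervals cover counting error only.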

Additional observations from a re-analysis of the deposited data

Results flagged for a closer look

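AT5G55050, the GDSL-type lipase, moved to opposite sides in P+T against P. In cdk8 all P+T libraries (13.9 to 15.6 CPM) lay below all P libraries (17.3 to 30.5 CPM), with a ratio of means of 0.631. In hsfa2 and WT all P+T libraries lay above all P libraries, with ratios of 2.7 and 7.23. The difference between genotypes was not tested. It was singled out after its values were seen.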

How the results depend on the processing

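The number of genes depended on the rule: 113 met a ratio of 1.5 and 7 a ratio of 3, and 21 remained when the mutants also needed 2 CPM at P+T. Leaving out 1 library gave 24 (without hsfa2 T replicate 3) to 39 genes (without hsfa2 T replicate 1), and 12 genes were chosen every time. At P against NHS, the count of higher genes in hsfa2 became 2 with DESeq2, with all genes of at least 1 read and with the replicate block, and in cdk8 it became 1 on the adjusted p alone, with all genes of at least 1 read and with the block. In cdk8 against WT at NHS, 1 gene was lower by library size alone, and 4 were higher on the adjusted p alone, 2 with DESeq2, 2 by library size alone, 0 with all genes of at least 1 read and 4 with the block. In hsfa2 against WT at P, 8 were lower with the block. In cdk8 against WT at P, 2 were higher on the adjusted p alone, 1 with DESeq2, 1 by library size alone and 1 with the block. In cdk8 against hsfa2 at P+T, 8 were higher on the adjusted p alone. The heat shock element was found for 15.2% of the genes in its minimal form and for 0% in its longer form.

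Leaving out 1 library at a time gave 17 to 18 lower genes in hsfa2 and 25 to 27 in cdk8 at P+T, 16 to 20 lower and 1 higher in cdk8 and 1 lower in hsfa2 at T, and, for cdk8 against hsfa2, 14 to 16 lower and 2 higher at T and 15 lower and 3 higher at P+T. At P it gave 2 to 4 lower in hsfa2 and 3 to 4 in cdk8, at NHS 1 to 4 lower and 0 to 3 higher in cdk8, and for P against NHS 0 to 2 in hsfa2, 0 to 1 in cdk8 and 7 to 9 in WT. Beside the changes named in the report, the block called AT3G09785 and CWINV5 lower in cdk8 than hsfa2 (adjusted p = 0.0337 at P+T and 0.0358 at T), and changed no other call of a paired comparison. Where the numbers did not pair the libraries it called BGLU7 in cdk8 and LTP4 in WT at P against NHS, AT4G31615 in cdk8 against WT at P, and CYP71B19 lower in P against NHS in hsfa2 and cdk8 relative to WT (adjusted p = 0.0413 and 0.0323). Of 1540 alternative values of single genes, 1514 kept their status as called or not called, 20 lost the call and 6 gained it. No called value reversed its direction (0), and 44 values that were not called changed sign. The causes of these changes were not tested. Depth limits genes near 3 counts, such as CWINV5, AT1G30190 and MYB41 in cdk8.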
